A study of Mus musculus with 7 samples.

Results

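The genes described here are the 10 that encode the prolyl hydroxylases of collagen and their dedicated chaperones. They were chosen by name from the deposited gene table: P4ha1, P4ha2, P4ha3 and P4hb (collagen prolyl 4-hydroxylase), P3h1, P3h2, P3h3, P3h4 and Crtap (the prolyl 3-hydroxylase family and its partner) and Serpinh1 (the chaperone HSP47). All 10 were found among 35727 genes, and all 10 had enough counts to be tested. The table holds polyA RNA-seq of undifferentiated pleomorphic sarcoma cells, sorted from mouse tumours by their red fluorescent protein. There were 3 libraries labelled p53KO with Vgll3 overexpression (Vgll3, a cofactor of TEAD transcription factors) and 4 labelled p53KO with Ccne1 overexpression (Ccne1, cyclin E1). Both tumour lines began as mesenchymal stem cells of female C57/Bl6 p53KO mice, so the p53 deletion is shared by both groups. The cells received a retroviral vector for one of the 2 genes, were passaged under the skin of female wild-type C57/Bl6 recipients, grown briefly in DMEM with FBS and transplanted into experimental mice, whose age the labels do not give. Each model is 1 line, so an effect of the transduced gene and any other contrast of the lines cannot be told apart, and libraries without either vector were not analysed here. The labels do not say whether the libraries of a model came from separate tumours, so the p-values rest on a spread among libraries that may be technical in part.

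A collagen chain becomes a stable triple helix only after many of its prolines have been hydroxylated in the endoplasmic reticulum. Prolyl 4-hydroxylase, a tetramer of catalytic alpha subunits (P4ha1, P4ha2 or P4ha3) and the beta subunit P4hb, makes the 4-hydroxyproline that holds the helix together, using oxygen, iron, 2-oxoglutarate and ascorbate. The prolyl 3-hydroxylases modify far fewer prolines, P3h1 in a complex with Crtap and cyclophilin B, and HSP47 binds the folded procollagen helix until it leaves the endoplasmic reticulum. In fibroblast-like tumours these genes are known for their part in laying down the stroma, and P4ha1 and P4ha2 are known targets of the hypoxia-inducible factor HIF.

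Library totals were 26433220 to 47504434 counts in the Vgll3-labelled libraries and 21725890 to 53610300 in the Ccne1-labelled libraries. Levels are in CPM, a count relative to its library total after TMM scaling. Vgll3 itself averaged 252 ± 34.6 CPM in Vgll3-labelled and 50.7 ± 8.57 CPM in Ccne1-labelled libraries (SD, n = 3 and n = 4), a log2 fold change of 2.31 (adjusted p = 1.2e-05). Ccne1 averaged 14.9 ± 2.16 CPM in Vgll3-labelled and 12.7 ± 5.61 CPM in Ccne1-labelled libraries (log2 fold change 0.23, adjusted p = 0.609), so mouse Ccne1 was not detectably higher in the libraries labelled for it, and the groups are called by their labels throughout. The labels do not give the species or sequence of the vector's Ccne1, so whether its reads were counted as this gene is not known. Fold changes are Vgll3-labelled over Ccne1-labelled, from edgeR's quasi-likelihood test with Benjamini-Hochberg adjustment over 13740 tested genes and a threshold of 0.05. Of 9 mesenchymal markers 3 rose (Pdgfrb, Cd44 and Eng), 4 fell (Vim, Nt5e, S100a4 and Prrx1) and 2 did not pass the test. Vim was high in every library (4150 to 4624 CPM in Vgll3-labelled, 12670 to 15753 CPM in Ccne1-labelled), whereas Thy1 was low (at most 2.54 CPM in Vgll3-labelled and 9.42 CPM in Ccne1-labelled libraries). Vgll3 replicate 3 stood apart from the others of its group, with a correlation of 0.946 and 0.948 to them across genes, against 0.970 to 0.981 for the remaining pairs within a group.

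Promoters are shown for P4ha1, P4ha2, P4hb and Serpinh1, because their windows, the 250 bases before a RefSeq transcription start, hold ACGTG on either strand. ACGTG is one form of the core of the element that HIF binds, and the other form, GCGTG, was not searched. RefSeq sequences on the build GRCm38.p6 were at hand for 8 of the 10 genes, in 9 windows, and P3h2 and P3h4 had none. Each is written 5′ to 3′ on the gene's own strand, and the capitals mark ACGTG or its reverse complement CACGT.
P4ha1, chr10:59323046-59323295, plus strand: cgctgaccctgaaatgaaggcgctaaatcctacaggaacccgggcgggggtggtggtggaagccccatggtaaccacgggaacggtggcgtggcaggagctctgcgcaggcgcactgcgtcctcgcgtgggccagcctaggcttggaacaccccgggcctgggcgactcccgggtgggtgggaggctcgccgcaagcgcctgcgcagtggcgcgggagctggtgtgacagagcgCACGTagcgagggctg
P4ha2, chr11:54100674-54100923, plus strand: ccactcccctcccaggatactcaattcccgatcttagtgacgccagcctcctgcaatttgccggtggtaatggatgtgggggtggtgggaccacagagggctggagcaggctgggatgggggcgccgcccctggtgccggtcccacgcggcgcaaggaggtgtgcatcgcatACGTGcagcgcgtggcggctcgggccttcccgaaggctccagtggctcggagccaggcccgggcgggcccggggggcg
P4hb, chr11:120573254-120573503, minus strand: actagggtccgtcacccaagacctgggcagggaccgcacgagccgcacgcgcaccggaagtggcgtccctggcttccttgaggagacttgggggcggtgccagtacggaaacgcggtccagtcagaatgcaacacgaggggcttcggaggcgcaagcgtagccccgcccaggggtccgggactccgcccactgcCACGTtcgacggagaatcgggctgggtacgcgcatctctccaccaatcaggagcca
Serpinh1, chr7:99353240-99353489, minus strand: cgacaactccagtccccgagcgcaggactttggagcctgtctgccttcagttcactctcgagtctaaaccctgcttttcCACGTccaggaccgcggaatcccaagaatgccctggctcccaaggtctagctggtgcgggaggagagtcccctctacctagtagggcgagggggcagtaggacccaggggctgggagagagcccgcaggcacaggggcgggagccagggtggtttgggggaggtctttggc
The motif began 16 bases before the RefSeq start of P4ha1 and 78 bases before that of P4ha2. It began 56 bases before that of P4hb and 171 bases before that of Serpinh1. The P4ha2 window lies within the gene's span in the annotation used here for coordinates (54100095 to 54131665), not upstream of it. The motif was also present 2 times in the second of 2 windows of P3h1. That window lies within the gene too, partly over an annotated exon, and is not shown. In all, 5 of 8 genes held it. This share is of genes, with P3h1 counted through either of its 2 windows, so it is not on the scale of a share of windows. In the first window of P3h1 and in those of P4ha3, P3h3 and Crtap ACGTG was not found. Of 32851 mouse promoter windows of the same length, 16.6% held ACGTG. The heat shock element pair GAANNTTC was searched on both strands and was in 0 of the 9 windows, against 6.69% of all windows. The endoplasmic reticulum stress element, ERSE, searched the same way, was in 0 of the 9 as well, against 0.113% of all windows. A match of letters is a description of the sequence and shows no binding.

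The folding genes moved in both directions between the models. In the Vgll3-labelled libraries 3 of the 10 rose (P3h1, P3h3 and Serpinh1) and 5 fell (P4ha1, P4ha3, P4hb, P3h2 and P3h4), while P4ha2 and Crtap did not pass the test. Of all tested genes 51.9% were called, 25.1% higher and 26.8% lower, so a call by itself sets no gene apart in this comparison. The median log2 fold change over the 10 genes was -0.34, beside 0.01 over all tested genes, and the same shares and median stand beside every gene list that follows. The libraries of the 2 groups did not overlap for any of the 8 called genes, and 55.7% of all tested genes showed no overlap (26.8% higher and 29.0% lower). For each of those 8 an exact two-sided permutation test (35 arrangements of the labels) gave p = 0.0286, the smallest it can give.

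**Figure D1:**
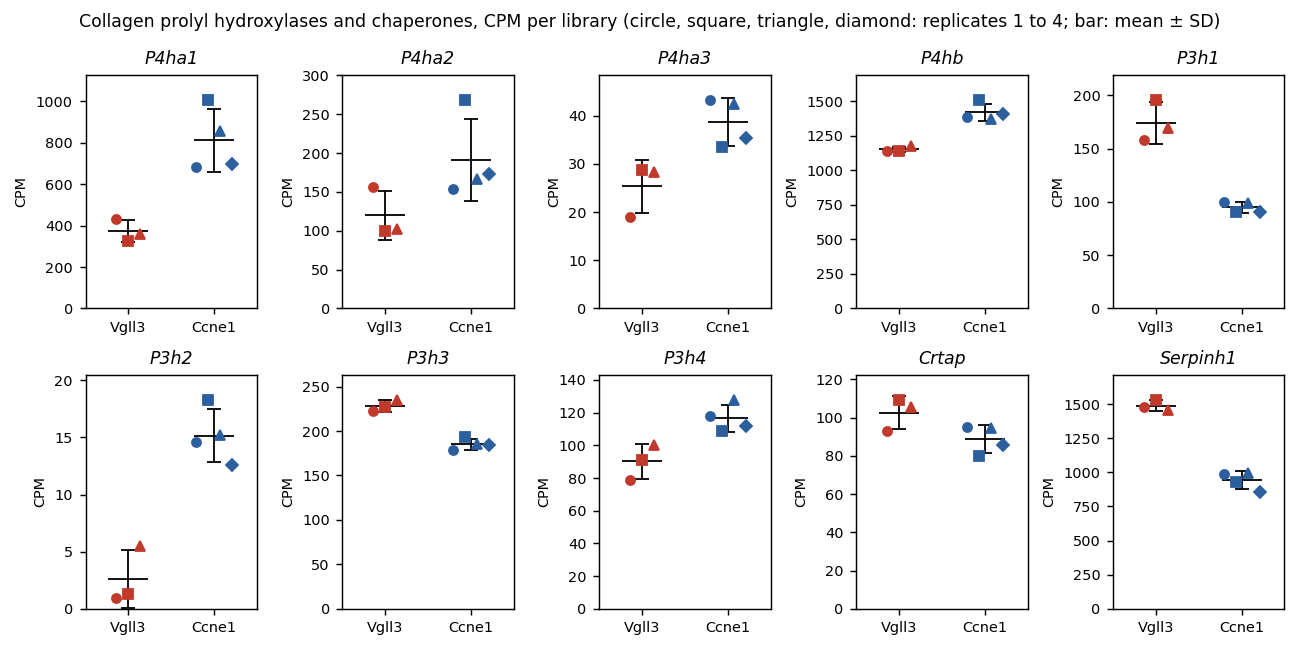
Level of each of the 10 genes in every library, in CPM on a linear axis from 0, with 3 Vgll3-labelled libraries on the left and 4 Ccne1-labelled libraries on the right of each panel; bars are the mean ± SD. P3h1, P3h3 and Serpinh1 sit higher and P4ha1, P4ha3, P4hb, P3h2 and P3h4 lower in Vgll3-labelled libraries without overlap, while P4ha2 and Crtap overlap.

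Of the 4 subunits of prolyl 4-hydroxylase, P4ha1, P4ha3 and P4hb fell in the Vgll3-labelled libraries and P4ha2 did not pass the test. P4ha1, the main catalytic subunit in most tissues (ENSMUSG00000019916, GRCm38 chromosome 10, 59323296 to 59373304, protein-coding), had 431, 326 and 361 CPM in Vgll3-labelled libraries, against 682, 1009, 857 and 699 CPM in Ccne1-labelled libraries. The highest Vgll3-labelled library thus lay well below the lowest Ccne1-labelled one. The means were 373 ± 53.3 CPM in Vgll3-labelled and 812 ± 153 CPM in Ccne1-labelled libraries (SD, n = 3 and n = 4), a 2.18-fold lower level (log2 fold change -1.12, SE 0.16, adjusted p = 0.000480). Under 13 alternative settings the log2 fold change of P4ha1 lay between -1.2452 and -0.9994 and stayed called.

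P4ha2, the alpha subunit best known from cartilage and endothelium (ENSMUSG00000018906, chromosome 11, 54100095 to 54131665), had 157, 100 and 103 CPM in Vgll3-labelled libraries, against 154, 269, 167 and 173 CPM in Ccne1-labelled libraries. The groups overlapped through Vgll3 replicate 1 and Ccne1 replicate 1, and Ccne1 replicate 2 was far above the rest of its group. Its means were 120 ± 31.9 CPM in Vgll3-labelled and 191 ± 52.8 CPM in Ccne1-labelled libraries, and the log2 fold change of -0.67 (SE 0.25, 95% interval -1.24 to -0.09) did not pass the test (adjusted p = 0.0541). The call depended on single libraries and on the tool. P4ha2 passed without Vgll3 replicate 1 (-0.92, adjusted p = 0.0190) and without Ccne1 replicate 1 (-0.76, adjusted p = 0.0490), by DESeq2 (adjusted p = 0.00621) and by limma-voom (adjusted p = 0.0293), within a range of adjusted p from 0.000564 to 0.168 over the 13 alternatives.

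P4ha3, the third alpha subunit that is scarce in most tissues (ENSMUSG00000051048, chromosome 7, 100285520 to 100319699), had 18.9, 28.8 and 28.3 CPM in Vgll3-labelled libraries, against 43.3, 33.6, 42.3 and 35.4 CPM in Ccne1-labelled libraries. Vgll3 replicate 1 was the lowest of the 7, and the groups did not overlap. The log2 fold change was -0.61 (SE 0.16, adjusted p = 0.0129). P4hb, which is protein disulfide isomerase and serves many folding proteins besides collagen (ENSMUSG00000025130, chromosome 11, 120560298 to 120573253), was among the most abundant folding genes. It had 1140, 1140 and 1174 CPM in Vgll3-labelled libraries, against 1387, 1512, 1374 and 1410 CPM in Ccne1-labelled libraries. The difference was small, 1.23-fold lower (log2 fold change -0.30, SE 0.07, adjusted p = 0.00762), with libraries close together in both groups.

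Within a library, the balance of alpha to beta subunit also differed. For every 100 counts of P4hb there were 32.4 ± 4.80 counts of P4ha1 in Vgll3-labelled libraries and 57.0 ± 8.90 in Ccne1-labelled libraries, a difference in the log2 ratio of -0.81 (exact two-sided permutation p = 0.0286, adjusted p = 0.0408 over the 10 ratios tested). Such a ratio does not depend on library scaling. P4ha2 per 100 counts of P4ha1 was 36.4, 30.7 and 28.4 in Vgll3-labelled libraries, against 22.6, 26.7, 19.4 and 24.7 in Ccne1-labelled libraries. These groups did not overlap, but the difference of 0.45 in the log2 ratio gave an exact permutation p of 0.0571 (adjusted p = 0.0714). The ratios P4ha3 to P4ha1 and P4ha2 to P4hb overlapped between the groups (differences in the log2 ratio of 0.49 and -0.36, exact permutation p = 0.229 for each). Counts divided by exon length put P4ha1 at 76.8 ± 0.866% of the summed alpha subunits in Vgll3-labelled libraries and at 82.1 ± 1.21% in Ccne1-labelled libraries. P4ha1 was thus the main alpha transcript in both models. On the same scale the summed alpha subunits came to 29.3 ± 4.20% of P4hb in Vgll3-labelled libraries and 48.2 ± 7.12% in Ccne1-labelled libraries. These percentages depend on the length used, here the union of exons. With the longest transcript as length, P4ha1 made up 65.0% of the alpha sum in Vgll3-labelled and 71.9% in Ccne1-labelled libraries. The alpha sum then came to 35.3% of P4hb in Vgll3-labelled and 56.0% in Ccne1-labelled libraries.

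The libraries with most P4ha1 and P4ha2 in their group were also those with most RNA of known hypoxia targets. Of 22 listed HIF prolyl hydroxylases, HIF subunits and hypoxia targets, all tested, 14 fell, 2 rose (Eno1 and P4htm) and 6 did not pass the test, with a median log2 fold change of -0.72. P4htm was scarce, at 1.16 ± 0.103 CPM in Vgll3-labelled and 0.461 ± 0.0786 CPM in Ccne1-labelled libraries. Vgll3 replicate 1 was the highest of its group for 19 of the 22 genes (86.4%, beside 32.4% of all tested genes). Ccne1 replicate 2 was the highest of its group for 21 of the 22 (95.5%, beside 29.9% of all tested genes). The same 2 libraries were the deepest of their groups and had the highest P4ha1 and P4ha2 of their groups. Over the 10 folding genes, Vgll3 replicate 1 was the highest of its group for 2 (20%) and Ccne1 replicate 2 for 5 (50%). How much of the variation of P4ha1 and P4ha2 goes with the hypoxia targets or with depth was not tested.

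Examples of the list had the same 2 libraries on top. Adm (adrenomedullin, a secreted vasodilator) was the list's largest fall, with 40.5, 9.75 and 17.6 CPM in Vgll3-labelled libraries, against 103, 192, 136 and 142 CPM in Ccne1-labelled libraries (log2 fold change -2.65, adjusted p = 0.00645). Hif1a, the oxygen-regulated subunit of HIF, had 305, 209 and 201 CPM in Vgll3-labelled libraries, against 370, 485, 454 and 406 CPM in Ccne1-labelled libraries (-0.85, adjusted p = 0.00255). Egln1, the HIF prolyl hydroxylase that marks HIF for breakdown, averaged 162 ± 45.9 CPM in Vgll3-labelled and 280 ± 64.1 CPM in Ccne1-labelled libraries (-0.79, adjusted p = 0.0212). Eno1, a glycolytic enzyme and the most abundant gene of the list, went the other way (2112 ± 359 CPM in Vgll3-labelled and 1623 ± 151 CPM in Ccne1-labelled libraries, log2 fold change 0.38, adjusted p = 0.0299), but lost its call under 7 of 13 alternatives. Hif1a and Egln1 were picked as examples after their values were seen. With Vgll3 replicate 1 and Ccne1 replicate 2 both left out, 3 of the 10 folding genes were still called higher and 5 lower. In that fit P4ha2 passed (log2 fold change -0.70, adjusted p = 0.000564) and P3h2 did not.

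**Figure D2:**
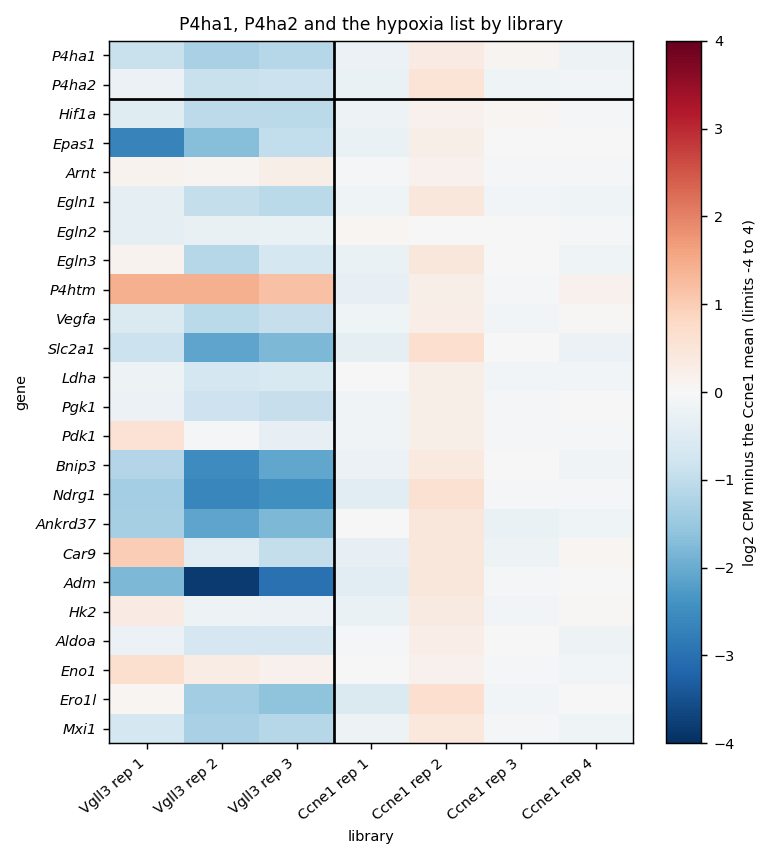
Log2 CPM of P4ha1 and P4ha2 (top rows) and of the 22 genes of the hypoxia list in each library, minus the mean of the 4 Ccne1-labelled libraries; Vgll3-labelled libraries are the 3 left columns and colours run from -4 (blue) to 4 (red). Within each group the library with most P4ha1 and P4ha2, Vgll3 replicate 1 or Ccne1 replicate 2, is also the reddest column for most of the list.

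The prolyl 3-hydroxylase family split by member. P3h1, the enzyme of the complex that 3-hydroxylates the fibrillar collagens (ENSMUSG00000028641, chromosome 4, 119232915 to 119248975), had 158, 196 and 169 CPM in Vgll3-labelled libraries, against 100, 90.5, 98.6 and 90.3 CPM in Ccne1-labelled libraries. All 3 values were far above the 4 others. It rose 1.84-fold (log2 fold change 0.88, SE 0.09, adjusted p = 6.87e-05). Crtap, its helper protein without enzyme activity (ENSMUSG00000032431, chromosome 9, 114375134 to 114390675), had 93.1, 109 and 106 CPM in Vgll3-labelled libraries, against 94.95, 79.9, 94.5 and 85.7 CPM in Ccne1-labelled libraries. The groups overlapped through Vgll3 replicate 1, and the log2 fold change of 0.21 (95% interval 0.01 to 0.41) did not pass the test (adjusted p = 0.0731, exact permutation p = 0.171). It passed without Vgll3 replicate 1 (0.27, adjusted p = 0.0367) and by DESeq2 (adjusted p = 0.0445), within a range from 0.0367 to 0.260 over the alternatives.

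The balance of P3h1 to its helper differed as well. P3h1 per 100 counts of Crtap was 169, 179 and 160 in Vgll3-labelled libraries, against 106, 113, 104 and 105 in Ccne1-labelled libraries. The log2 ratio differed by 0.66 (exact permutation p = 0.0286, adjusted p = 0.0408 over the 10 ratios), with the groups far apart. These counts are not divided by gene length, so they do not show which of the 2 was higher in a library. Per kilobase of exon, P3h1 lay below Crtap in both groups (45.3 against 57.9 CPM in Vgll3-labelled and 24.7 against 50.1 CPM in Ccne1-labelled libraries). Ppib, cyclophilin B, the proline isomerase that completes the complex, averaged 315 ± 16.0 CPM in Vgll3-labelled and 243 ± 16.5 CPM in Ccne1-labelled libraries (log2 fold change 0.37, adjusted p = 0.00358).

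P3h3 and P3h4, known in mice to sit together in a complex that supports lysine hydroxylation of collagen, moved in opposite directions. P3h3 (ENSMUSG00000023191, chromosome 6, 124841089 to 124857752) had 223, 227 and 235 CPM in Vgll3-labelled libraries, against 179, 193, 185 and 184 CPM in Ccne1-labelled libraries (log2 fold change 0.30, SE 0.06, adjusted p = 0.00365). P3h4, a family member without enzyme activity (ENSMUSG00000006931, chromosome 11, 100408456 to 100414836), had 79.0, 91.3 and 100 CPM in Vgll3-labelled libraries, against 118, 109, 128 and 112 CPM in Ccne1-labelled libraries (-0.37, SE 0.10, adjusted p = 0.0107). Both differences were small and without overlap of the groups. P3h4 per 100 counts of P3h3 was 39.5 ± 3.64 in Vgll3-labelled and 63.1 ± 5.63 in Ccne1-labelled libraries, a difference in the log2 ratio of -0.68 (exact permutation p = 0.0286, adjusted p = 0.0408). P3h3 outnumbered P3h1 in every library, but less so in Vgll3-labelled libraries (132 ± 14.1 counts per 100 of P3h1, against 196 ± 15.8 in Ccne1-labelled libraries; difference in the log2 ratio -0.57, exact permutation p = 0.0286, adjusted p = 0.0408).

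P3h2, the 3-hydroxylase that acts mainly on type IV collagen of basement membranes, showed the largest fold among the 10 (ENSMUSG00000038168, chromosome 16, 25959288 to 26105784). It had 0.965, 1.29 and 5.52 CPM in Vgll3-labelled libraries, against 14.6, 18.3, 15.2 and 12.6 CPM in Ccne1-labelled libraries. Even the lowest library held 34 counts of it. Vgll3 replicate 3 was several times above the other two of its group and still below every Ccne1-labelled library. The gene was 5.93-fold lower (log2 fold change -2.57, SE 0.62, adjusted p = 0.0122), and its log2 fold change came to -3.77 with Vgll3 replicate 3 left out (adjusted p = 2.72e-06). With both deepest libraries left out it was -2.05 and no longer passed (adjusted p = 0.0515, the highest over the 13 alternatives). An antisense gene overlaps P3h2 exons in the annotation, and since the use of strand in counting is not given, reads of the 2 cannot be told apart.

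The main chains of type IV collagen had a like profile over the libraries. Col4a1 had 187, 305 and 963 CPM in Vgll3-labelled libraries, against 2822, 2745, 3004 and 2747 CPM in Ccne1-labelled libraries (log2 fold change -2.54, SE 0.59, adjusted p = 0.0118). Col4a2 had 129, 211 and 750 CPM in Vgll3-labelled libraries, against 2194, 1909, 2191 and 2016 CPM in Ccne1-labelled libraries (-2.52, SE 0.64, adjusted p = 0.0173). As with P3h2, Vgll3 replicate 3 was the highest of its group for both, and without it the log2 fold changes were -3.52 and -3.61. Col4a2 lost its call without Vgll3 replicate 2 (adjusted p = 0.0564) and with both deepest libraries left out (adjusted p = 0.0570; its range over the alternatives was 1.3e-05 to 0.0570). Of the 5 type IV chains tested, those 2 fell and Col4a5 rose, with 49.7 ± 5.59 CPM in Vgll3-labelled and 5.94 ± 0.416 CPM in Ccne1-labelled libraries (log2 fold change 3.07, adjusted p = 1.02e-06). The list's median of -0.18 was the value of Col4a4, which was scarce (0.303 CPM in Vgll3-labelled and 0.336 CPM in Ccne1-labelled libraries). Col4a6 was scarce too (1.23 CPM in Vgll3-labelled and 1.05 CPM in Ccne1-labelled libraries), and neither passed the test. The closeness of profile was measured over all 7 libraries, as the root mean square distance between log2 CPM centred on each gene's mean. Among 8831 other genes with at least 10 CPM, the nearest to P3h2 were Col4a1 (0.195), Col4a2 (0.202) and Cul9 (0.213). For P3h1, the largest rise, the nearest of 8830 were B4galt2 (0.0352), Parp8 (0.0419) and Sirt6 (0.0567).

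Endothelial cells also make basement membrane, and Vgll3 replicate 3 had the largest endothelial marker sum of its group. The 8 endothelial markers summed to 34.4, 65.8 and 232 CPM in Vgll3-labelled libraries, against 137, 51.2, 83.3 and 59.9 CPM in Ccne1-labelled libraries, and 0 of the 8 were called by edgeR (0 also at an unadjusted p under 0.05, by DESeq2 and by limma-voom). None of the 8 was at 0 in all libraries. Pecam1, the defining adhesion molecule of endothelium, was the largest single part of the mean sum in both groups, with 19.6, 35.3 and 184 CPM in Vgll3-labelled libraries, against 71.3, 22.4, 49.6 and 23.4 CPM in Ccne1-labelled libraries. Without Pecam1, left out after its values were seen, the other 7 markers summed to 14.8, 30.5 and 48.1 CPM in Vgll3-labelled libraries. In Ccne1-labelled libraries they summed to 66.2, 28.8, 33.6 and 36.5 CPM. By that sum Vgll3 replicate 3 lay below Ccne1 replicate 1 and above the other Ccne1-labelled libraries. Among the Vgll3-labelled libraries, replicate 1 was the lowest and replicate 3 the highest for Pecam1, P3h2, Col4a1 and Col4a2. The endothelial markers Cdh5, Kdr, Emcn, Vwf and Tie1 had that order too. Tek and Cldn5 were also lowest in replicate 1 but highest in replicate 2. Between the groups the markers overlapped, whereas P3h2 and both chains did not. The cells were sorted for red fluorescent protein, and the purity of that sort was not tested. The part of endothelial RNA in the P3h2 level of Vgll3 replicate 3 was not tested either. In RNA pooled over sorted cells, fewer cells of a type and less RNA per cell cannot be told apart.

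**Figure D3:**
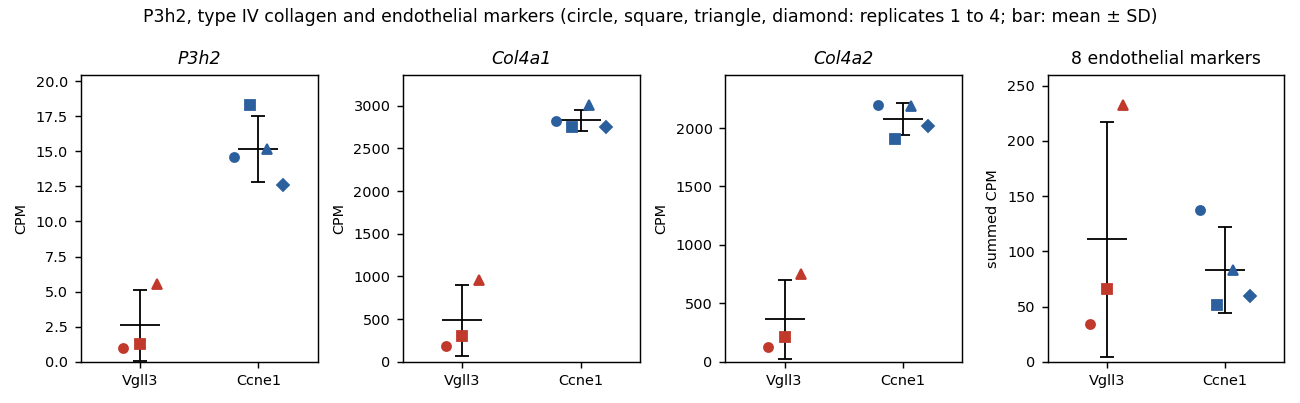
Level in CPM of P3h2, Col4a1 and Col4a2 and the summed CPM of 8 endothelial markers in every library, on linear axes from 0, with 3 Vgll3-labelled libraries left and 4 Ccne1-labelled libraries right; bars are the mean ± SD. Vgll3 replicate 3 (triangle) is the highest of its group in all 4 panels, and the groups overlap only for the endothelial sum.

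Serpinh1, which encodes the collagen chaperone HSP47 (ENSMUSG00000070436, chromosome 7, 99345376 to 99353239), was higher in the Vgll3-labelled libraries. It had 1480, 1530 and 1457 CPM in Vgll3-labelled libraries, against 991, 926, 992 and 852 CPM in Ccne1-labelled libraries. Every Vgll3-labelled library lay far above every Ccne1-labelled one. Serpinh1 rose 1.58-fold (log2 fold change 0.66, SE 0.08, adjusted p = 0.000196) and kept its call under all 13 alternatives (0.62 to 0.69).

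Most of the fibrillar chains, the main substrates of HSP47 and the hydroxylases, rose as well. Of 10 fibrillar chains tested 8 rose, while Col11a2 and Col27a1 did not pass the test, and the median log2 fold change was 1.46. Col1a1, the main chain of type I collagen, had 11480, 14987 and 13728 CPM in Vgll3-labelled libraries, against 5040, 3596, 5172 and 4244 CPM in Ccne1-labelled libraries (log2 fold change 1.57, adjusted p = 5.09e-05). Its partner chain Col1a2 averaged 17309 ± 2673 CPM in Vgll3-labelled and 4197 ± 463 CPM in Ccne1-labelled libraries (2.04, adjusted p = 9.98e-06). Type III collagen, Col3a1, averaged 16014 ± 2254 CPM in Vgll3-labelled and 4122 ± 665 CPM in Ccne1-labelled libraries (1.96, adjusted p = 2.13e-05). The largest rise of the list was Col11a1 (2.11, adjusted p = 0.000532), and Col5a1, which nucleates fibrils, followed the main chains (1.43, adjusted p = 7.73e-05).

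Set against its substrate, the chaperone was lower in the Vgll3-labelled libraries. Serpinh1 per 100 counts of Col1a1 was 12.9, 10.2 and 10.6 in Vgll3-labelled libraries, against 19.7, 25.7, 19.2 and 20.1 in Ccne1-labelled libraries. The groups were well apart, with a 1.88-fold lower ratio (difference in the log2 ratio -0.91, exact permutation p = 0.0286, adjusted p = 0.0408). Against Col3a1 the ratio was 9.43 ± 1.41 in Vgll3-labelled and 23.3 ± 4.06 in Ccne1-labelled libraries (-1.30, adjusted p = 0.0408 in the same permutation test). For P4hb per 100 counts of Col1a1 it was 8.70 ± 1.17 in Vgll3-labelled and 32.3 ± 7.11 in Ccne1-labelled libraries, a 3.68-fold lower ratio (-1.88, exact permutation p = 0.0286, adjusted p = 0.0408). Serpinh1, Col1a1 and Col3a1 thus rose in CPM, while the transcript ratios of the chaperone to these 2 substrates fell.

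**Figure D4:**
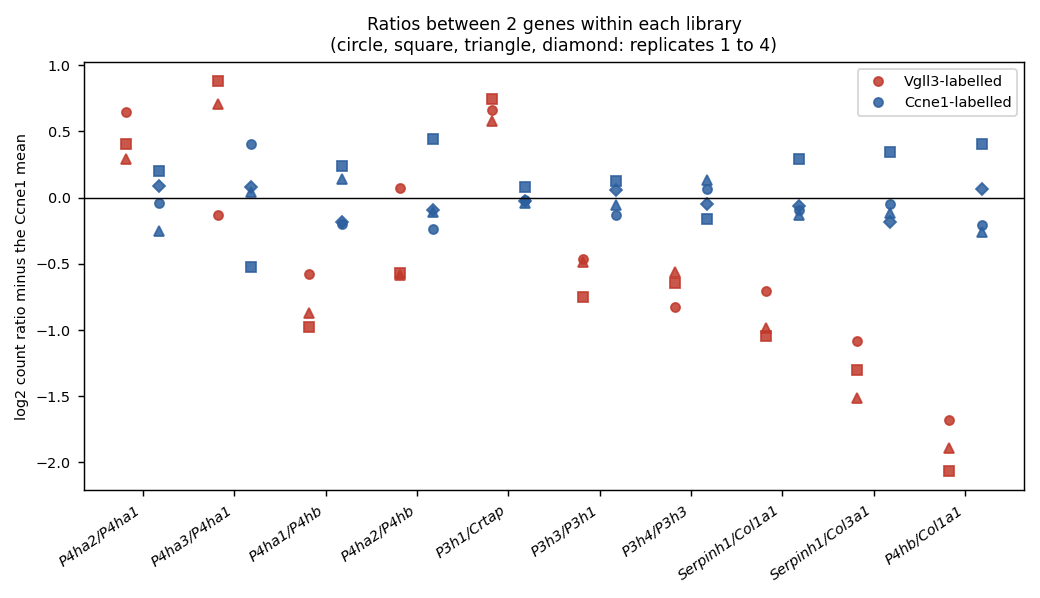
Log2 ratio of the counts of 2 genes within each library, minus the mean of the 4 Ccne1-labelled libraries; red marks are the 3 Vgll3-labelled libraries and blue marks the 4 Ccne1-labelled libraries. P4ha3/P4ha1 and P4ha2/P4hb overlap between the groups, and the ratios to Col1a1 and Col3a1 lie lowest, down to a mean of -1.88 for P4hb/Col1a1.

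Levels of different genes were compared per kilobase of exon (CPM divided by the union of exons in the GENCODE vM21 annotation). Serpinh1 was the highest of the 10 in Vgll3-labelled libraries, at 610 ± 15.3 CPM per kilobase, followed by P4hb at 402 ± 6.92. In Ccne1-labelled libraries these levels were 385 ± 27.1 for Serpinh1 and 497 ± 21.95 for P4hb, so the order of the 2 was the opposite, in each group without overlap. P4ha1 followed in both models, with 90.6 ± 13.0 CPM per kilobase in Vgll3-labelled and 197 ± 37.2 in Ccne1-labelled libraries. Below it, P3h3 and Crtap overlapped in level in Vgll3-labelled libraries (58.1 and 57.9), as did P3h1 and P3h4 (45.3 and 41.4). In Ccne1-labelled libraries P3h4, Crtap and P3h3 overlapped with their neighbours (53.5, 50.1 and 47.1), as did P4ha2 and P3h1 (30.5 and 24.7). The lowest in both models were P4ha3 (8.08 CPM per kilobase in Vgll3-labelled and 12.3 in Ccne1-labelled libraries) and P3h2 (0.696 in Vgll3-labelled and 4.08 in Ccne1-labelled libraries). With the longest transcript as length, the places of P4ha2, P3h3, P3h4 and Crtap changed in Ccne1-labelled libraries, and no place changed in Vgll3-labelled libraries. Of the 10 genes, P4ha2 had the lengths furthest apart, with 6239 bases in union and 3060 bases in the longest transcript.

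The other genes of collagen folding moved in both directions too. Of 14 listed and tested (isomerases, lysyl hydroxylases and secretory regulators), 7 rose, 2 fell and 5 did not pass the test, with a median log2 fold change of 0.22. The largest rise was Creb3l1, a membrane-bound transcription factor known to drive procollagen genes, with 188, 224 and 155 CPM in Vgll3-labelled libraries, against 38.0, 28.2, 38.8 and 25.3 CPM in Ccne1-labelled libraries (2.54, adjusted p = 3.21e-05). Sparc, a secreted collagen-binding protein and the most abundant of the list, averaged 2212 ± 238 CPM in Vgll3-labelled and 1106 ± 133 CPM in Ccne1-labelled libraries (1.00, adjusted p = 0.000154). Both lysyl hydroxylases that fell did so without overlap of the groups. Plod2, which hydroxylates the telopeptides and is a known HIF target, averaged 250 ± 48.1 CPM in Vgll3-labelled and 410 ± 48.7 CPM in Ccne1-labelled libraries (-0.71, adjusted p = 0.00263). Plod3, which also adds glucose to collagen, averaged 119 ± 2.95 CPM in Vgll3-labelled and 189 ± 8.50 CPM in Ccne1-labelled libraries (-0.67, adjusted p = 6.52e-05). Plod1, which hydroxylates the helix, rose slightly (116 ± 2.06 CPM in Vgll3-labelled and 99.1 ± 3.90 CPM in Ccne1-labelled libraries, 0.22, adjusted p = 0.0148), but lost its call under 3 of 13 alternatives. These were no low-count filter (adjusted p = 0.0722), leaving out Vgll3 replicate 2 (0.0572) and a replicate block (0.1495), within a range of adjusted p from 0.000726 to 0.1495. Fkbp10, an isomerase that works with HSP47, was close to level (293 CPM in Vgll3-labelled and 292 CPM in Ccne1-labelled libraries, 0.01, 95% interval -0.19 to 0.21, adjusted p = 0.947).

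**Figure D5:**
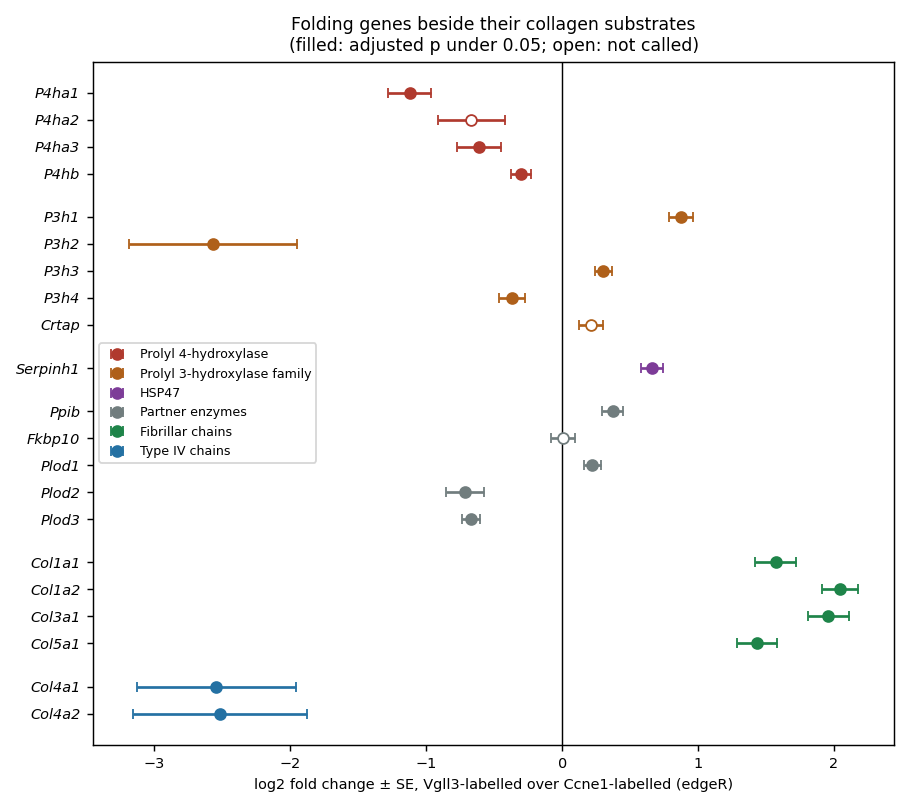
Log2 fold change from edgeR, Vgll3-labelled over Ccne1-labelled, ± an SE derived from its F statistic, for the 10 folding genes, 5 partner enzymes, 4 fibrillar chains and 2 type IV chains. Filled points passed an adjusted p of 0.05 and open points did not. The fibrillar chains lie between 1.43 and 2.04, above every folding gene, and P3h2 lies beside Col4a1 and Col4a2 near -2.5.

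The list of general chaperones of the endoplasmic reticulum holds chaperones and isomerases that serve many secreted proteins, and also 4 transcription factors of its stress response (Xbp1, Atf4, Atf6 and Ddit3). Of 22 tested, 1 rose, 9 fell and 12 did not pass the test, with a median of -0.21. Of the 4 transcription factors, Atf6 was among those that fell (85.3 ± 13.3 CPM in Vgll3-labelled and 129.7 ± 8.55 CPM in Ccne1-labelled libraries, log2 fold change -0.60, adjusted p = 0.00154) and the others did not pass. Pdia4, a disulfide isomerase, was the one that rose (262 ± 37.3 CPM in Vgll3-labelled and 189 ± 13.2 CPM in Ccne1-labelled libraries, 0.47, adjusted p = 0.00468). Dnajb9, a co-chaperone of the unfolded protein response, had the largest fall (37.7 ± 9.22 CPM in Vgll3-labelled and 64.8 ± 3.80 CPM in Ccne1-labelled libraries, -0.78, adjusted p = 0.00197). Calr, the calcium-binding lectin chaperone calreticulin and the most abundant of the list, fell slightly (1255 ± 24.5 CPM in Vgll3-labelled and 1542 ± 56.5 CPM in Ccne1-labelled libraries, -0.30, adjusted p = 0.00778).

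Procollagen leaves the endoplasmic reticulum in large COPII carriers, and of 20 tested genes of that export 8 rose, 2 fell and 10 did not pass the test (median 0.11). Kdelr3, which returns chaperones such as HSP47 from the Golgi, rose most (97.99 ± 8.70 CPM in Vgll3-labelled and 57.3 ± 1.47 CPM in Ccne1-labelled libraries, 0.77, adjusted p = 5.47e-05). Sec31a, a subunit of the outer COPII coat, averaged 375 ± 5.65 CPM in Vgll3-labelled and 259 ± 5.69 CPM in Ccne1-labelled libraries (0.53, adjusted p = 0.000152). Sar1b, a GTPase that starts the coat, fell (25.3 ± 4.48 CPM in Vgll3-labelled and 40 ± 3.63 CPM in Ccne1-labelled libraries, -0.66, adjusted p = 0.00252). Of 7 tested genes of propeptide removal 3 rose and 3 fell. Adamts2, the procollagen N-proteinase, averaged 250 ± 78.3 CPM in Vgll3-labelled and 44.1 ± 5.995 CPM in Ccne1-labelled libraries (2.51, adjusted p = 0.000105). Pcolce2, an enhancer of the C-proteinase, averaged 10.8 ± 3.07 CPM in Vgll3-labelled and 34.3 ± 6.998 CPM in Ccne1-labelled libraries (-1.67, adjusted p = 0.000834). Bmp1, the C-proteinase itself and the most abundant of that list, did not pass (438 ± 56.1 CPM in Vgll3-labelled and 516 ± 35 CPM in Ccne1-labelled libraries, -0.24, adjusted p = 0.0757).

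The synthesis, uptake and breakdown of proline and the uptake of ascorbate, a cofactor of the hydroxylases, were covered by 12 tested genes. Of these, 5 rose, 2 fell and 5 did not pass (median 0.15). Aldh4a1, an enzyme of proline breakdown, was among the 5 that rose. Pycr1, which makes proline in mitochondria, had the largest rise (19.4 ± 3.34 CPM in Vgll3-labelled and 3.27 ± 0.361 CPM in Ccne1-labelled libraries, 2.57, adjusted p = 7.29e-06). Slc23a2, the sodium-dependent carrier that brings ascorbate into cells, had the largest fall (54.1 ± 2.43 CPM in Vgll3-labelled and 147 ± 33.8 CPM in Ccne1-labelled libraries, -1.45, adjusted p = 0.000207). Slc38a2, an amino acid carrier that takes up proline and the most abundant of the list, did not pass (-0.16, adjusted p = 0.218).

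Markers of host fibroblasts also differed between the groups. The 8 host fibroblast markers summed to 221 to 328 CPM in Vgll3-labelled and 958 to 1112 CPM in Ccne1-labelled libraries, 4 of 8 tested fell, and most of the sum was Pdgfra (226 ± 46.1 CPM in Vgll3-labelled and 919 ± 60.1 CPM in Ccne1-labelled libraries), which mesenchymal tumour cells also express. The 10 macrophage markers summed to 7.57 to 18.2 CPM in Vgll3-labelled and 7.85 to 17.3 CPM in Ccne1-labelled libraries, and 0 of the 6 tested were called by edgeR (0 also at an unadjusted p under 0.05, by DESeq2 and by limma-voom). Pericyte and smooth muscle markers summed to 145 to 172 CPM in Vgll3-labelled and 459 to 552 CPM in Ccne1-labelled libraries, mostly Cspg4, and 2 of 5 tested rose and 1 fell. Genes of the stress of tissue dissociation summed to 8344 to 11283 CPM in Vgll3-labelled and 6822 to 9353 CPM in Ccne1-labelled libraries. In that list 2 of 8 rose and 2 fell, among them Egr1 (1376 ± 53.2 CPM in Vgll3-labelled and 183 ± 12.3 CPM in Ccne1-labelled libraries, log2 fold change 2.91, adjusted p = 8.37e-07) and Ier3 (152 ± 67.7 CPM in Vgll3-labelled and 841 ± 150.3 CPM in Ccne1-labelled libraries, -2.46, adjusted p = 0.000526). The 5 erythroid markers summed to 0.189 to 2.21 CPM in Vgll3-labelled and 5.73 to 10.3 CPM in Ccne1-labelled libraries, and 2 of 3 tested fell. How far the sort for red fluorescent protein removed host cells of these kinds was not tested. The part of these cells or of the stress in the levels of the folding genes was not tested.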

How the data were processed

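PolyA RNA of sorted sarcoma cells was sequenced in 7 libraries, grouped by their titles. The deposited values are estimated counts by Ensembl gene, made by the authors with Salmon on mm10, per the submitters' processing notes. Not given in the sources used here are Salmon's version, the annotation, the use of strand and the way transcripts were summed. All values were whole. Genes were tested with edgeR 4.0.16 in R 4.3.3 (filterByExpr, TMM, robust quasi-likelihood F test, model as the only term, Benjamini-Hochberg over 13740 genes). Log2 count ratios of 2 genes used a prior count of 0.5 and exact two-sided permutation tests over 35 arrangements, adjusted over 10 ratios. Exon lengths and coordinates came from GENCODE vM21 (GRCm38). Named genes are the 10 members, 11 substrates and partners, and from each list its largest called rise, its largest called fall (from 10 CPM up in the higher group) and its most abundant gene. Other names were chosen after their values were seen. The genes and lists were chosen with earlier results of these data known. The main fit was run on simulated counts with far fewer changed genes than were called here. Its behaviour with as many changed genes as in these data was therefore not checked. Alternatives were DESeq2 1.42.0, its size factors, limma-voom (limma 3.58.1), no low-count filter, a replicate block, leaving out libraries, a prior count of 3 and the longest transcript as length. The replicate numbers gave no pairing.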

Additional observations from a re-analysis of the deposited data

Results flagged for a closer look

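In the 4 Ccne1-labelled libraries, a library was marked where its gap to the nearest other library was, as a share of the group's range, above Dixon's 95% value for 4 samples. Of 49 values examined 4 were marked, and chance marks about 1 in 20. Ccne1 replicate 2 stood apart for P4ha2, with 268.8 CPM (gap over range 0.837). The same library stood apart for the log2 ratio of P3h1 to Crtap, at 0.1792 (0.854), and for the log2 ratio of Serpinh1 to Col1a1, at -1.9579 (0.843). Ccne1 replicate 4 stood apart for the proline enzyme Pycr1, with 2.725 CPM (0.972).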

How the results depend on the processing

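Of the 10 folding genes, P4ha1, P4ha3, P3h1, P3h4 and Serpinh1 kept their direction and their call under all 13 alternatives, and Crtap and P4ha2 kept their direction. Over all genes 7133 were called, and 6023 to 7334 with 1 library left out, 7446 by DESeq2 and 7256 by limma-voom. There were 7157 calls with DESeq2 size factors, 6649 with no low-count filter and 4841 with the replicate block. With DESeq2 size factors the median log2 fold change was 0.02 instead of 0.01, and 50.4% instead of 48.4% of the calls were higher.

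The replicate numbers did not pair the libraries: the correlations of same-numbered libraries were -0.112, -0.135 and -0.083, and no library correlated best with its own number. With the replicate block, 2287 genes were called higher, 5 general chaperones lower and 0 genes of the hypoxia list higher (1 at an unadjusted p under 0.05 in edgeR), and the calls of P4hb (adjusted p = 0.0943) and P3h3 (adjusted p = 0.0641) were lost. The block also ended the calls of Calr, Eno1, Adm, Ppib and Plod1. With Vgll3 replicate 1 and Ccne1 replicate 2 left out together, an alternative chosen after the data were seen, 1 type IV chain was lower and 0 genes of the hypoxia list were higher (3 at an unadjusted p under 0.05 in edgeR).

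With 1 library left out at a time, the counts of calls ranged from 1 to 3 for the hypoxia list higher, 1 to 2 for type IV chains lower, 1 to 2 for general chaperones higher, 3 to 4 for the folding genes higher and 5 to 6 for them lower. The differences of log2 ratios kept their direction but could not reach 0.05 with 6 libraries, where the smallest permutation p is 0.0667 without a Vgll3-labelled library and 0.1 without a Ccne1-labelled one. They ranged from -0.93 to -0.73 for P4ha1 to P4hb, 0.62 to 0.70 for P3h1 to Crtap, -0.62 to -0.48 for P3h3 to P3h1, -0.73 to -0.60 for P3h4 to P3h3, -1.01 to -0.81 for Serpinh1 to Col1a1, -1.41 to -1.18 for Serpinh1 to Col3a1 and -1.98 to -1.74 for P4hb to Col1a1. A prior count of 3 changed no call among the 10 ratios. Fkbp10, close to 0 throughout, changed sign with no low-count filter (-0.0042), without Vgll3 replicate 2 (-0.0474), without Vgll3 replicate 3 (-0.0043) and without Ccne1 replicate 2 (-0.0443), and reached 0.0669 without Vgll3 replicate 1. Dividing by the longest transcript moved 10 of 20 levels per kilobase by more than the SD. The cause of these changes was not tested. With 3 and 4 libraries, the spread between libraries sets the precision.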
